A study of Mus musculus with 11 samples.

Results

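Phox2a, Hand2, Gata2, Gata3, Isl1, Insm1, Myt1 and Sox4 encode transcription factors of sympathoadrenal and neuroendocrine cells. They were picked by symbol from the deposited tables and make up 8 of 52661 genes with an expression value and 80 of 246820 splicing events with at least 10 reads in every library. RNA came from N2A (Neuro-2A) cells, a mouse neuroblastoma line, harvested 48 h after transfection with siGENOME SMARTpools, which are mixtures of small interfering RNAs against 1 gene, in Lipofectamine RNAiMAX. The pools were directed at Fubp1 (2 libraries), at Khsrp (2 libraries), at both genes (2 libraries, the double knockdown), at Rbm38 (2 libraries), or at no gene (siNT, 3 libraries, carried through the same transfection). The study's design calls the targets splicing factors; each knockdown is set against siNT, and the double also against the single knockdowns. The libraries are cultures of 1 cell line, and the labels call them biological duplicates and triplicates.

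In the sympathetic nervous system and the adrenal medulla, neural crest cells become noradrenergic neurons and chromaffin cells under a set of transcription factors that act on one another's genes. Phox2a and Hand2 act early in this circuit downstream of bone morphogenetic protein signals, Gata2, Gata3 and Isl1 maintain it, and its targets include the enzymes that make noradrenaline. Insm1 and Myt1 are zinc finger proteins that repress genes of other lineages in neuroendocrine and neuronal cells, and Sox4 is an HMG box factor of immature neurons. Neuroblastoma arises from this lineage, and the same factors keep its noradrenergic form.

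All 8 genes were detected in siNT cells, as were other markers of the noradrenergic form. In the authors' deposited table, which gives 1 RPKM value per group (reads scaled by transcript length and by library size), siNT cells had 248 RPKM for Chgb, 18.8 RPKM for Dbh and 2.63 RPKM for Th. Sox10, Foxd3, Twist1 and Twist2, which mark Schwann cells, neural crest and mesenchymal cells, were listed at 0.00 RPKM there, although Vim stood at 820 RPKM and Fn1 at 77.9 RPKM. Between the members, the siNT level was highest for Hand2 at 227 RPKM in the authors' deposited table and lowest for Gata3 at 7.95 RPKM. No spread belongs to these values, so neighbours in that order cannot be separated. Each silenced gene was lower where it was targeted. The authors' deposited log2 fold change was -2.60 for Fubp1 after its knockdown, -2.77 for Khsrp after its knockdown, -3.04 for Fubp1 and -2.94 for Khsrp in the double knockdown, and -3.42 for Rbm38 after its knockdown. Khsrp was also lower in the Rbm38 knockdown, with a log2 fold change of -0.70 (FDR 0.0243) in the authors' deposited table.

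Most calls among the members were decreases, and Gata3 in the Fubp1 knockdown was the exception. In the authors' deposited test, at an FDR under 0.05, Insm1 and Myt1 fell and Gata3 rose in the Fubp1 knockdown, so 2 of 8 members were lower, against 10.5% of the 23378 genes tested, and 1 was higher, against 12.0%. By the authors' deposited values 4 of 8 members, Myt1, Gata2, Insm1 and Sox4, were lower in the Khsrp knockdown, against 4.34% of all genes, and 0 were higher, against 3.82%. The double knockdown lowered 3 of 8 members, Myt1, Insm1 and Isl1, in the authors' deposited test, against 13.7% of all genes, and raised 0, against 13.2%. After Rbm38 knockdown 2 of 8 members, Gata2 and Insm1, were lower in the authors' deposited table, against 7.02% of all genes, and 0 were higher, against 7.96%. The median log2 fold change of the 8 members in that authors' deposited table was 0.18 in the Fubp1, -0.67 in the Khsrp, -0.70 in the double and -0.20 in the Rbm38 knockdown, beside medians between 0.00 and 0.02 over all tested genes. The 4 comparisons share the siNT libraries. The tested genes include many under 1 RPKM in siNT, whereas each member had at least 7.95 RPKM there. The share called among genes as highly expressed as the members was not computed and can differ from the shares given. In bulk RNA, fewer cells of a type and less RNA per cell cannot be told apart.

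**Figure D1:**
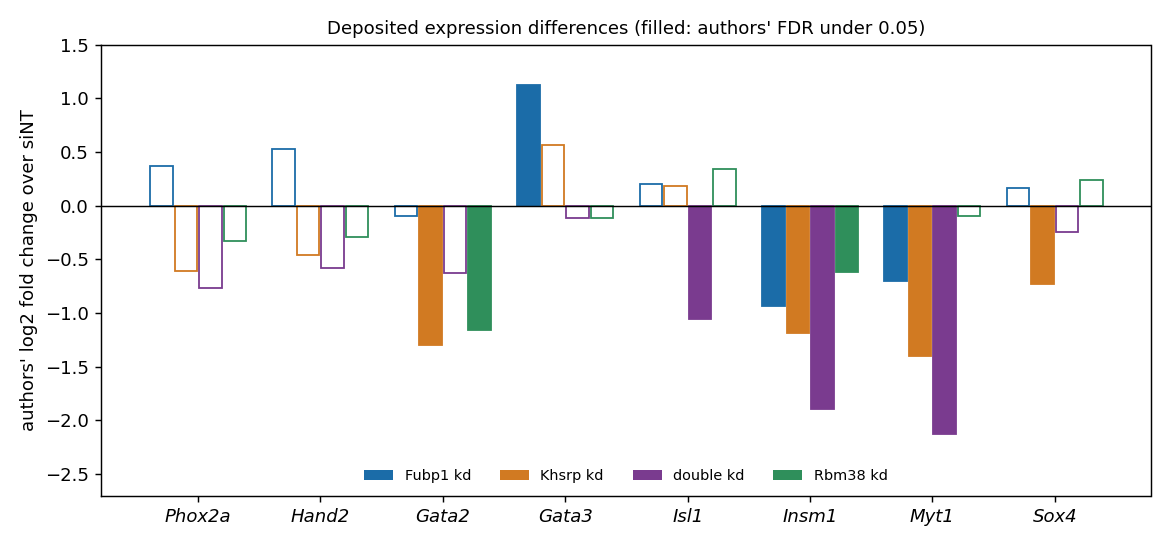
Log2 fold change of each member over siNT in the authors' deposited table (y axis), with 4 bars per gene for the Fubp1, Khsrp, double and Rbm38 knockdowns; filled bars have the authors' FDR under 0.05. Insm1 has 4 filled bars below 0 and Myt1 has 3, the lowest of which is -2.13 in the double knockdown, while the filled bar above 0 is Gata3 in the Fubp1 knockdown at 1.13.

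Expression per library could be read for 6 members from their splice junctions. Reads at the introns of a gene were summed in each library, scaled by median-of-ratios factors and expressed per 1000000 junction reads of the average library (junction RPM), and log2 levels of 10697 genes were compared with limma (Benjamini-Hochberg adjusted p under 0.05). Insm1 and Sox4 have no introns in the table and so no such level. By this measure 2 of 6 members differed after Fubp1 (32.4% of all genes), 2 after Khsrp (9.19%), 2 after double (39.6%) and 1 after Rbm38 knockdown (21.3%).

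Myt1 had the largest fold changes of the 8 genes in the Khsrp and double knockdowns. It encodes a zinc finger factor that in vertebrate neurogenesis promotes neuronal fate and counters Notch signalling. In the authors' deposited table it stood at 23.4 RPKM in the Fubp1, 15.7 in the Khsrp, 10.0 in the double and 39.7 in the Rbm38 knockdown, against 40.8 RPKM in siNT cells. The deposited log2 fold changes of the authors' table were -0.70 (FDR 1.97e-05), -1.40 (FDR 2.53e-18), -2.13 (FDR 7.48e-41) and -0.10 (FDR 0.776) in the same order of knockdowns. Per library, Myt1 had 99.6 and 96.5 junction RPM after Fubp1 knockdown, 55.5 and 48.2 after Khsrp knockdown, 33.4 and 34.7 after double and 160 and 119 after Rbm38 knockdown, against 157, 163 and 133 in siNT. All libraries of the Fubp1, Khsrp and double knockdowns lay below every siNT library, and the Rbm38 libraries overlapped siNT. In limma the log2 difference from siNT was -0.62 (SE 0.145, adjusted p = 0.0105) for Fubp1, -1.54 (SE 0.145, adjusted p = 0.000688) for Khsrp and -2.14 (SE 0.145, adjusted p = 1.18e-05) for the double knockdown. Leaving out Fubp1 library A or B ended the Fubp1 call, with adjusted p = 0.0673 and adjusted p = 0.0851. Set against the single knockdowns, where 21.7% of all genes differed between double and Khsrp and 33.9% between double and Fubp1, the double knockdown had less Myt1, with a log2 difference of -0.60 from the Khsrp knockdown (adjusted p = 0.0241) and of -1.52 from the Fubp1 knockdown (adjusted p = 0.000387, limma on log2 levels). The difference from the Khsrp knockdown missed the threshold without any 1 of the 4 libraries concerned (adjusted p = 0.0637 to 0.165 in limma).

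Insm1 fell in each of the 4 knockdowns. It encodes a zinc finger repressor that in mice is needed for sympathoadrenal and endocrine cells to differentiate. The authors' deposited table gave 20.8 RPKM in the Fubp1, 21.96 in the Khsrp, 9.12 in the double and 26.2 in the Rbm38 knockdown, against 39.0 RPKM in siNT cells. Its log2 fold changes in the authors' deposited table were -0.94 (FDR 4.16e-07), -1.19 (FDR 4.95e-10), -1.90 (FDR 1.68e-25) and -0.61 (FDR 0.00267). In the Khsrp knockdown the log2 ratio of the authors' deposited RPKM values was -0.83, a smaller fall than the fold change. The Insm1 transcript is 62.0% G and C, higher than 98.2% of genes with junction levels. No value per library could be read for Insm1 here, so its spread between libraries is not shown.

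Isl1, a LIM homeodomain factor of sympathetic neurons, fell in the double knockdown. It had 12.0 and 12.4 junction RPM there, against 23.8, 27.5 and 23.8 in siNT. After silencing of Fubp1 it had 29.5 and 27.3, after Khsrp 28.0 and 28.1, and after Rbm38 28.8 and 33.6 junction RPM. The double knockdown libraries were thus the lowest of the 11, and the Khsrp and Rbm38 libraries all lay above siNT by a small margin. The limma log2 difference of the double knockdown was -1.03 from siNT (SE 0.125, adjusted p = 0.000210), -1.20 from the Khsrp knockdown (adjusted p = 0.000450) and -1.21 from the Fubp1 knockdown (adjusted p = 0.000517). The authors' deposited table gave -1.05 against siNT on the log2 scale (FDR 4.20e-11), with 8.11 RPKM in the double knockdown and 17.3 RPKM in siNT cells, and its values for the single knockdowns, 0.20 for Fubp1, 0.19 for Khsrp and 0.35 for Rbm38, did not pass the authors' FDR threshold.

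Gata2 and Gata3, zinc finger factors needed for sympathetic neuron development, differed in other knockdowns. Gata2 had 104 and 109 junction RPM in the Fubp1, 40.5 and 35.2 in the Khsrp, 74.3 and 57.9 in the double and 30.3 and 57.4 in the Rbm38 knockdown, against 127, 120 and 66.5 in siNT. The Khsrp and Rbm38 libraries lay below all siNT libraries, of which library C lay between those of the double knockdown. In the authors' deposited table Gata2 fell, with log2 fold changes of -1.30 in the Khsrp (FDR 2.69e-04) and -1.16 in the Rbm38 knockdown (FDR 8.10e-04). It stood at 48.2 RPKM in the Fubp1, 24.0 in the Khsrp, 44.7 in the double and 42.9 in the Rbm38 knockdown, against 61.7 RPKM in siNT cells, by the authors' deposited table. The log2 ratio of these RPKM values was -1.36 for the Khsrp and -0.53 for the Rbm38 knockdown, so the 2 measures of the authors' deposited table differ for Gata2 after Rbm38 knockdown. By limma on junction levels the log2 differences were -1.41 (adjusted p = 0.0252) and -1.27 (adjusted p = 0.0198). Library numbers in the titles fall into a set of 1 to 4, which holds both Fubp1 libraries with siNT A and siNT B, and a set of 8 to 27 with siNT C and all others. With a term for these sets the Gata2 differences were -0.82 (adjusted p = 0.169) and -0.67 (adjusted p = 0.162), and each lost its call in limma. Without siNT A, without siNT B, without either Khsrp library or without Rbm38 library A the calls concerned were also lost, and without siNT C Gata2 was in addition called in the double knockdown (-0.91, adjusted p = 0.0148).

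Gata3 had 41.4 and 46.2 junction RPM after Fubp1, 25.7 and 25.6 after Khsrp, 16.2 and 13.8 after double and 13.9 and 17.6 after Rbm38 knockdown, against 25.4, 19.9 and 11.7 in siNT. Both Fubp1 libraries lay above all others. The limma log2 difference of the Fubp1 knockdown from siNT was 1.27 (SE 0.274, adjusted p = 0.00716), and 0.96 with the term for library sets (adjusted p = 0.00237). Without Fubp1 library B it was 1.20 (adjusted p = 0.0672). The double knockdown differed from the Fubp1 knockdown by -1.55 (log2, adjusted p = 0.00549 in limma), and this difference lost its call with the set term (-0.60, adjusted p = 0.194). In the Khsrp knockdown the log2 difference from siNT was 0.51 (adjusted p = 0.247), and the set term moved it to 1.13 (adjusted p = 0.0171). The authors' deposited log2 fold changes were 1.13 (FDR 3.16e-05) in the Fubp1, 0.57 (FDR 0.137) in the Khsrp and -0.12 in both the double and the Rbm38 knockdown, with FDR 0.844 and 0.870.

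Phox2a and Hand2 passed no test over all libraries. Phox2a, a homeodomain factor that turns on the Dbh gene, had 36.1 and 29.4 junction RPM in the Fubp1, 16.8 and 9.8 in the Khsrp, 25.3 and 3.3 in the double and 7.5 and 32.2 in the Rbm38 knockdown, against 39.4, 27.2 and 10.6 in siNT. Within 1 group the libraries differed 7.66-fold in the double knockdown, 4.30-fold in the Rbm38 knockdown and 3.72-fold in siNT. Its SD within groups was 1.21 on the log2 scale, above that of 99.4% of genes with levels, whose median was 0.19. Its transcript is 63.8% G and C, a higher share than in 99.4% of genes, and GC-rich genes moved the same way between those libraries. Library A exceeded library B of the double knockdown by 2.94 log2 units in Phox2a, by a median of 0.18 in the 10% of genes richest in GC and by a median of -0.11 in the 10% poorest in it. For A minus B of the Rbm38 knockdown the same values were -2.10, -0.17 and 0.13, and for siNT C minus the mean of siNT A and B they were -1.63, -0.18 and 0.08. The part of GC content in the member values was not tested. Without double knockdown library A, Phox2a was called lower in the double knockdown in limma (-2.77, adjusted p = 0.0399).

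Hand2, a basic helix-loop-helix factor required for noradrenergic differentiation, had 94.3 and 88.6 junction RPM after Fubp1, 69.3 and 70.7 after Khsrp, 82.1 and 43.9 after double and 60.1 and 94.2 after Rbm38 knockdown, against 84.4, 75.7 and 55.1 in siNT. The Fubp1 libraries lay above siNT, and those of each other knockdown overlapped it. The authors' deposited log2 fold changes of Hand2 ran between -0.58 and 0.53, with FDR from 0.123 to 0.602. For Phox2a the authors' deposited values ran between -0.76 and 0.37, with FDR from 0.139 to 0.684. Sox4 fell in the Khsrp knockdown, with a log2 fold change of -0.73 in the authors' deposited table (FDR 1.03e-09), with 56.3 RPKM there and 76.55 RPKM in siNT cells. Its other 3 authors' deposited values ran between -0.25 and 0.24 and passed no threshold.

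**Figure D2:**
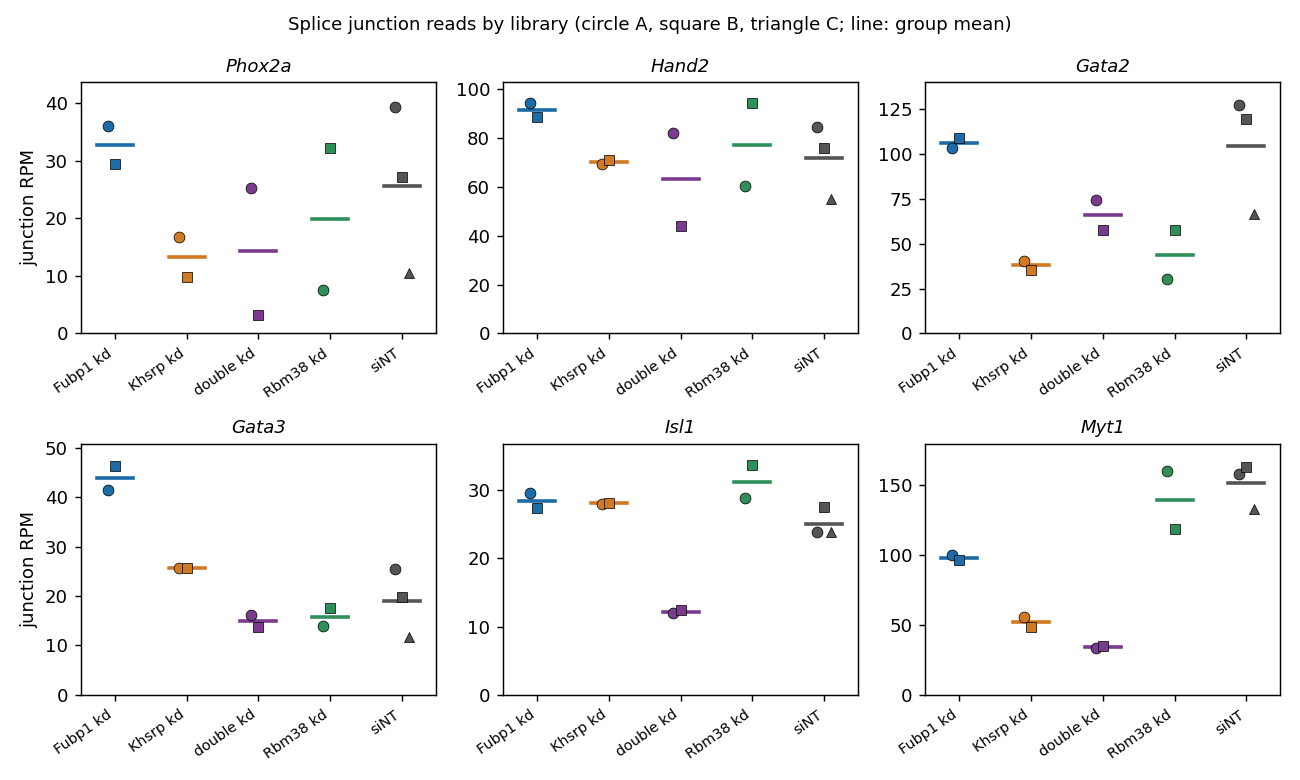
Junction RPM (y axis, from 0) of 6 members in each library of the Fubp1, Khsrp, double and Rbm38 knockdowns and siNT; circles are library A, squares B, triangles C, and lines the group means. Myt1 and Isl1 libraries of the double knockdown sit together below all siNT libraries, whereas the Phox2a libraries of the double knockdown stand at 25.3 and 3.3.

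Splicing values are percent spliced in (PSI), which counts how often an exon is included or an intron kept. Of 28 member events tested, 17 lie in Myt1, 5 in Isl1, 4 in Gata2 and 2 in Phox2a, while Hand2, Gata3, Insm1 and Sox4 had 0. At an adjusted p under 0.05 in limma and a difference of at least 10 points, 1 member event was called in the double knockdown, against 7.45% of all 60127 events. No member event was called in the Fubp1 (0.808% of all events), Khsrp (0.0316%) or Rbm38 knockdown (0.113%), nor between double and Khsrp (4.89%) or double and Fubp1 knockdown (4.14%). At an unadjusted p under 0.05, limma marked 6 of the 28 member events in the Fubp1 (14.7% of all events), 6 in the Khsrp (10.8%), 7 in the double (26.8%) and 7 in the Rbm38 knockdown (11.2%). The authors' deposited table holds 26 of them and marks 1 in the Fubp1 (5.18% of all events), 1 in the Khsrp (2.34%), 3 in the double (14.9%) and 1 in the Rbm38 knockdown (2.59%).

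The called event was a 69 nt exon of Myt1, which is coding and a multiple of 3. It was matched by its length and both flanking introns to exon 16 of the annotated transcript Myt1-202, GRCm38 chr2:181811355-181811423 on the plus strand. The 63 nt exon before it starts at 181811165. Of 5 annotated coding transcripts across this stretch, 3 hold the 69 nt exon and 4 hold the preceding 63 nt exon. The sequence is shown because this exon carries the splicing difference. It runs 5′ to 3′ through the preceding 63 nt exon, the 69 nt exon in capitals and the following 63 nt exon, from the GENCODE transcript.
Myt1 exons 15 to 17: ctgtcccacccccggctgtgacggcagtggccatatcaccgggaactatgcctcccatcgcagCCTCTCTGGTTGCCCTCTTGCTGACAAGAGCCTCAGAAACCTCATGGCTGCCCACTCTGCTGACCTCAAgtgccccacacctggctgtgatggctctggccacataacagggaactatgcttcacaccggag
The 2 flanking 63 nt exons are identical at 49 of 63 positions when aligned without gaps (77.8%).

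The 69 nt exon was included at 51.4% and 47.0% PSI in the double knockdown, from 85 and 81 reads, against 27.6%, 23.1% and 21.1% in siNT, from 445, 692 and 317 reads. The mean was 49.2% ± 3.1 in the double knockdown (SD, n = 2) and 23.9% ± 3.3 in siNT (SD, n = 3). The limma log2 odds differed by 1.62 (SE 0.339, adjusted p = 0.00260), and the PSI difference was 25.28 points. Inclusion was 38.9% and 29.7% after silencing of Fubp1, 44.6% and 30.6% after Khsrp, and 20.3% and 20.8% after Rbm38. The libraries of both single knockdowns of Fubp1 and Khsrp thus lay above every siNT library, yet the differences missed the adjusted threshold (13.68 points, adjusted p = 0.284 for Khsrp; 10.37 points, adjusted p = 0.248 for Fubp1). The double knockdown exceeded the Khsrp knockdown by 11.6 points (adjusted p = 0.437 in limma) and the Fubp1 knockdown by 14.91 points (adjusted p = 0.185). Without double knockdown library A the difference from siNT was 23.09 points and the adjusted p = 0.0572 in limma.

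The preceding 63 nt exon of Myt1 had 85.6% and 88.7% PSI after double and 89.1% and 82.0% after Rbm38 knockdown, against 79.2%, 74.6% and 70.5% in siNT. After silencing of Fubp1 it had 83.2% and 75.4%, and after Khsrp 78.9% and 80.7%. The libraries of the double and Rbm38 knockdowns lay above all siNT libraries, and the authors' deposited table marks both differences. They were 12.41 points (adjusted p = 0.117) and 10.78 points (adjusted p = 0.293) in limma and were not called. The 3625 nt intron of Myt1 was retained at 20% and 13.3% in the Fubp1 knockdown, against 9.4%, 7.5% and 3.1% in siNT (10.0 points, adjusted p = 0.213 in limma), from 66 and 34 against 64, 93 and 50 reads. It was retained at 3.9% and 7.7% after Khsrp, 2.3% and 8.6% after double and 8.2% and 2.3% after Rbm38 knockdown. The double knockdown, in which Fubp1 was also silenced, lay below both Fubp1 libraries, and the difference of -11.21 points was not called (adjusted p = 0.385 in limma). With no minimum difference, 5 member events passed the adjusted threshold in the double knockdown, as did 14.8% of all events. They were the 69 nt exon, 3 Myt1 introns with differences of 3.20 to 6.13 points, and a 190 nt exon of Isl1. The intron with 3.20 points was retained at 0.0% and 6.4% in the double knockdown, from 23 and 25 reads, against 0.0% in each siNT library. The other Myt1 introns among them lay above every siNT library in both double knockdown libraries. That Isl1 exon had 98.9% and 90.4% PSI in the double knockdown, against 99.6%, 99.4% and 98.9% in siNT, a difference of -4.65 points (adjusted p = 0.0165 in limma) in which library A did not leave the siNT range.

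**Figure D3:**
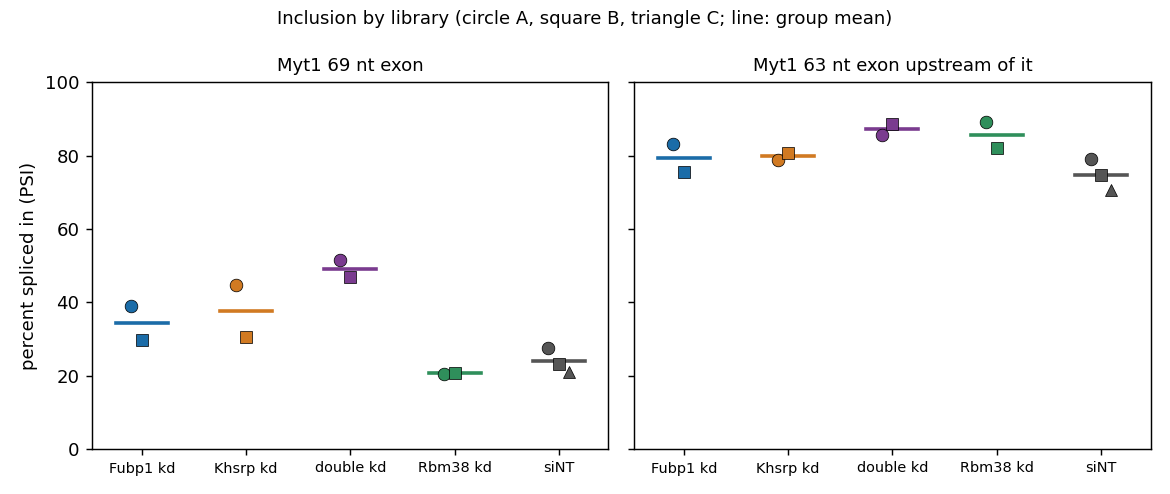
PSI in percent (y axis, 0 to 100) of the Myt1 69 nt exon (left) and the 63 nt exon before it (right) in each library of the Fubp1, Khsrp, double and Rbm38 knockdowns and siNT; circles are library A, squares B, triangles C, and lines the group means. The double knockdown libraries of the 69 nt exon, at 51.4% and 47.0%, sit above the 3 siNT libraries at 21.1% to 27.6%.

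Genes around the 8 factors were read as lists of known partners and targets, at the authors' FDR under 0.05. Over all 23378 genes of that test, 10.5% fell and 12.0% rose in the Fubp1 knockdown, and 4.34% and 3.82% in the Khsrp knockdown. In the double knockdown 13.7% fell and 13.2% rose, and in the Rbm38 knockdown 7.02% and 7.96%. Each list count below is to be read beside these shares. Of 37 tested partners of the circuit, 14 fell and 3 rose in the double knockdown in the authors' deposited table. The list's median log2 fold change in the authors' deposited table was 0.21 in the Fubp1, -0.22 in the Khsrp, -0.29 in the double and -0.15 in the Rbm38 knockdown, beside the medians near 0 over all genes. Tfap2b (-2.92), Hand1 (-2.55) and St18 (-1.97) had the largest log2 fold changes in the authors' deposited table. Hand1 was there at 0.39 RPKM or less in the double knockdown and siNT, and at 0.86 RPKM or less in every group. Tfap2b encodes an AP-2 factor of sympathetic progenitors and St18 a zinc finger factor of the Myt1 family. In the authors' deposited test 3 partners fell and 8 rose in the Fubp1 knockdown, led by Tfap2b (-1.56), Meis1 (1.09) and Sox12 (0.97). In the Khsrp knockdown 3 fell and 2 rose, led by St18 (-1.51), Tfap2b (-0.91) and Rcor2 (-0.70), and in the Rbm38 knockdown 8 fell and 3 rose, led by Hand1 (1.76), Rcor2 (-1.06) and Sox12 (-0.88), all in the authors' deposited table.

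Of 13 tested catecholamine genes, 5 fell and 1 rose in the double knockdown in the authors' deposited table. Dbh, the enzyme that turns dopamine into noradrenaline, stood at 2.75 RPKM in the double knockdown, against 18.8 RPKM in siNT cells, by the authors' deposited table, a log2 difference of -2.95. The list's medians were -0.09, 0.00, -0.73 and 0.21 in the Fubp1, Khsrp, double and Rbm38 knockdowns of the authors' deposited table. The -0.73 is the value of Slc6a2, listed there at 0.01 RPKM in the double knockdown and 0.02 RPKM in siNT cells. Maoa and Pnmt, at 0.04 RPKM or less in every group, also enter these medians. The vesicular monoamine transporters Slc18a1 (-1.81) and Slc18a2 (-1.47) fell with Dbh in the double knockdown in the authors' deposited test. Slc18a1 stood at 0.30 RPKM in the double knockdown and at 1.18 RPKM in siNT cells in the authors' deposited table. In the Fubp1 knockdown 3 fell and 1 rose, and Dbh (-1.53), Slc18a2 (-1.34) and Pcbd1 (-0.89) were the largest in the authors' deposited table. In the Khsrp knockdown 0 fell and 1 rose, Ddc (0.63), the decarboxylase that makes dopamine, in the authors' deposited table. The Rbm38 knockdown had 0 lower and 3 higher genes, Pcbd1 (0.92), Cyb561 (0.61) and Slc18a2 (0.50), in the authors' deposited table.

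Of 25 tested genes of dense core granules and secretion, 6 fell and 3 rose after Fubp1, 2 fell and 5 rose after Khsrp, 13 fell and 4 rose after double and 2 fell and 10 rose after Rbm38 knockdown, by the authors' deposited table. Its medians in the authors' deposited table were -0.11, 0.02, -0.48 and 0.34 in that order. Rab3c (-1.74), a vesicle GTPase, the neuropeptide gene Npy (-1.55) and the granin Chgb (-1.48) led in the double knockdown in the authors' deposited table. Npy (-2.42), Vgf (-1.54) and Resp18 (-0.86) led in the Fubp1 knockdown, and Resp18 (1.39), Syp (0.46) and Rab3c (-0.45) in the Khsrp knockdown, in the authors' deposited table. In the Rbm38 knockdown the authors' deposited table was led by Pcsk2 (1.46), a prohormone convertase, Resp18 (1.42) and Npy (-0.91). Pcsk2 stood there at 0.95 RPKM in the Rbm38 knockdown and at 0.35 RPKM in siNT cells.

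Of 29 tested receptor, BMP and Notch genes, 8 fell and 9 rose in the double knockdown in the authors' deposited table, led by Notch3 (3.42), Hes5 (1.77) and Ret (-1.48). The list's medians ran from -0.04 to 0.12 over the 4 knockdowns in the authors' deposited table. Notch3 stood at 0.45 RPKM in the double knockdown and at 0.04 RPKM in siNT cells in the authors' deposited table. Ret, the receptor for glial cell line-derived factors, had 68.1 RPKM in the double knockdown and 187 RPKM in siNT cells in the authors' deposited table. After Fubp1 knockdown 5 fell and 9 rose, led by Notch3 (1.55), Gfra1 (1.25) and Jag1 (1.03) in the authors' deposited table. After Khsrp knockdown 3 fell and 4 rose, led by Notch3 (2.11), Jag1 (-1.22) and Ret (-1.07), and after Rbm38 knockdown 4 fell and 4 rose, led by Notch3 (-2.48), Chrnb4 (1.18) and Chrna3 (0.87), by the authors' deposited table. Notch3 was at 0.45 RPKM or less in every group there. Jag1, Hes5 and Chrnb4 were at 0.31, 0.52 and 0.30 RPKM in siNT cells in the authors' deposited table. Of 6 tested Schwann cell and neural crest markers, 0 fell and 2 rose in the Fubp1, 1 fell and 1 rose in the Khsrp, 0 fell and 1 rose in the double, and 0 changed in either direction in the Rbm38 knockdown by the authors' deposited test. Their medians ran from 0.03 to 0.32 in the authors' deposited table. Of 15 tested mesenchymal markers, 4 fell and 1 rose in the Fubp1, 0 fell and 1 rose in the Khsrp, 0 fell and 4 rose in the double, and 0 fell and 1 rose in the Rbm38 knockdown, also by the authors' deposited test, with medians from -0.19 to 0.37. The named markers were Sox9 (0.72) after Fubp1, Gfap (2.07) and Erbb3 (-0.72) after Khsrp and Gfap (2.57) after double knockdown in the authors' deposited table. Mesenchymal markers named by it were Fosl2 (1.43) and Tnfrsf12a (-1.0) after Fubp1, Vim (0.60) after Khsrp, Col1a1 (1.80), Fosl2 (1.5) and Wwtr1 (1.08) after double and Col1a1 (1.49) after Rbm38 knockdown, and Fosl1, lower after Fubp1 knockdown, is listed at 0.00 RPKM there in the authors' deposited table. The Schwann cell and neural crest list, most of it Sox9, summed to 17.3 RPKM after Fubp1, 18.01 after Khsrp, 18.5 after double and 13.2 after Rbm38 knockdown, against 11.47 RPKM in siNT cells, in the authors' deposited table. Sox9 itself was not called after Khsrp, double or Rbm38 knockdown in the authors' deposited test (FDR 0.603, 0.0682 and 0.942). The mesenchymal list, most of it Vim, summed to 689, 1317, 1081 and 892 RPKM in the same knockdowns, against 949 RPKM in siNT cells, in the authors' deposited table. Some named markers stood low in the authors' deposited table. Col1a1 had 0.02 RPKM in siNT cells, 0.30 RPKM after double and 0.18 RPKM after Rbm38 knockdown there. Gfap had 0.33 RPKM and Erbb3 0.94 RPKM in siNT cells. The part of Schwann, neural crest or mesenchymal cells in the member values was not tested.

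**Figure D4:**
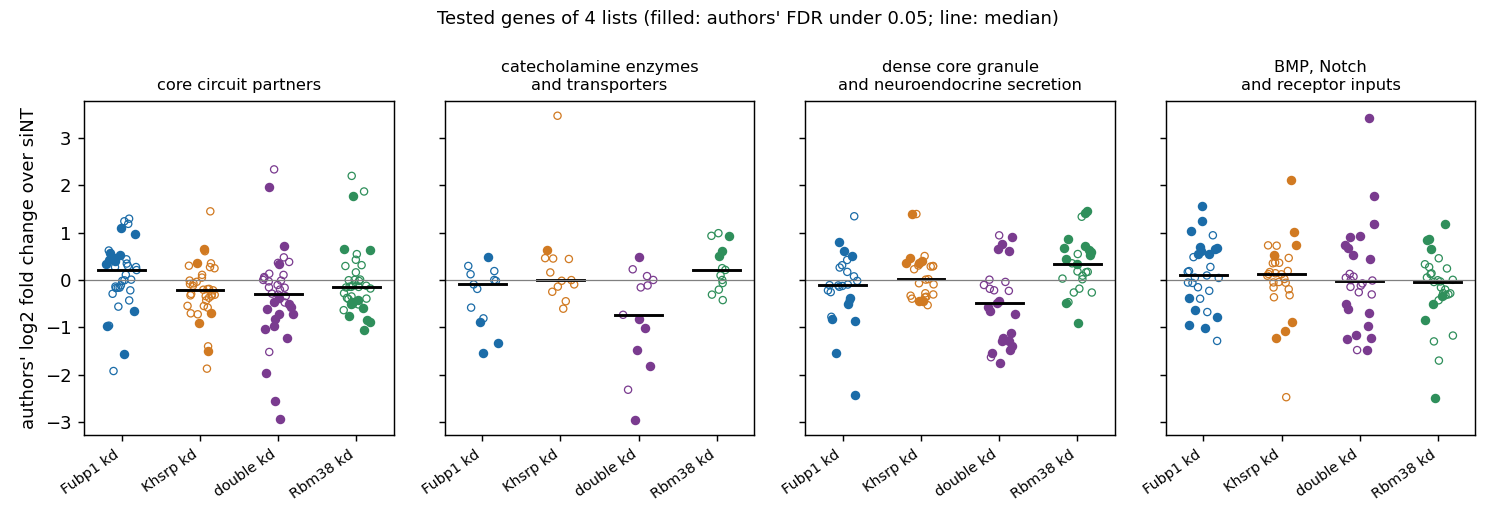
Log2 fold change over siNT in the authors' deposited table (y axis) of the tested genes of 4 lists, with the Fubp1, Khsrp, double and Rbm38 knockdowns from left to right in each panel; filled points have the authors' FDR under 0.05 and black lines are medians. The median of the catecholamine list is -0.73 in the double and 0.21 in the Rbm38 knockdown. The -0.73 is the value of Slc6a2, a gene at 0.02 RPKM or less in every group.

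The genes closest to Insm1 and Myt1 over the 4 authors' deposited log2 fold changes were sought among 12395 genes of at least 1 RPKM, by Euclidean distance. For Insm1 they were Itga1 (distance 0.13), Ppfibp2 (0.22) and Arfgef3 (0.24), and for Myt1 they were Pspc1 (0.31), Mmgt1 (0.35) and Asb1 (0.38), all from the authors' deposited table.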

How the data were processed

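RNA-seq of 11 libraries in 5 groups was used. The authors deposited RPKM values, 1 per group, with log2 fold changes, p-values and FDR of each knockdown against siNT; edgeR, Salmon 0.14.1 and mm10 are named in the submitters' processing notes, without their roles. The sources used here do not say how replicates were combined, so these values were taken as they stand. The authors also deposited a splicing table with percent spliced in per library and the inclusion and exclusion reads as a quality score text; a recalculation of PSI came within 0.05 points of the deposited percent.

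Events with at least 10 reads in every library and a mean PSI from 1 to 99 were fitted with limma 3.58.1 (R 4.3.3) on log2 odds of inclusion, 0.5 added to inclusion and exclusion reads, with weights 1 over the binomial variance plus 0.09, 1 mean per group and a trend. Junction levels sum the intron reads of a gene, scaled by median-of-ratios factors, for genes with a mean of at least 20 reads; this measure was chosen after seeing the data. Libraries held between 20635355 and 47726466 intron junction reads, and the median tested event had 99 to 221 reads. Reads carry no molecular identifiers, so precision from read numbers covers counting error only. On simulated data for the double knockdown against siNT, with 60127 events, the splicing fit recovered 53 of 100 changes of 30 points and 3 of 100 of 15 points, with 0 false among 56 calls. Only these events were changed, a far smaller share than the 7.45% called in the real double knockdown. The simulated scatter between libraries had the same variance, 0.09, as the weights. Recovery with a larger share of changed events was not tested. The junction level fit, with 10697 genes, recovered 180 of 200 genes given a log2 change of 1, with 12 false among 192 calls. Its simulated scatter beyond counting error was the same for all genes. In the real data the SD within groups was 1.21 for Phox2a and 0.42 for Gata2, beside a median of 0.19. Only these 200 genes were changed, a smaller share than the 39.6% called in the real double knockdown. Recovery at the scatter of the members was not tested.

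The members and lists were chosen with earlier results of these data known. All members are named. From each list up to 3 genes of largest fold change at the authors' FDR under 0.05 are named per knockdown. Some items are not reported here. Of the member events, those called and the 3 with the largest differences are given per library. The sources used here do not give the build of the splicing coordinates, so the Myt1 exon was placed by its length and flanking introns in GENCODE on GRCm38.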

Additional observations from a re-analysis of the deposited data

How the results depend on the processing

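The counts of members called in the authors' deposited test stayed within 1.5 times of the values given at a stricter FDR of 0.01, with a minimum 1.5-fold change and with adjustment over genes of at least 1 RPKM alone. In splicing, dropping the minimum difference gave 5 member events in the double knockdown (14.8% of all events) and 1 between the double and Fubp1 knockdowns (6.93%). Leaving out 1 library gave 0 to 1 member events in the double knockdown. The 69 nt Myt1 exon remained called in 11 of 12 alternatives, and in the comparisons where the 3 events given per library were not called, they stayed so in 192 values.

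In junction levels, leaving out siNT A or siNT B gave 2 members called in the Fubp1 knockdown (3095 and 3170 of all 10697 genes). It gave 1 in the Khsrp (301 and 281), 2 in the double (3350 and 3339) and 0 in the Rbm38 knockdown (1331 and 1347). Without siNT C, 2 members were called in the Fubp1 (4011 genes) and 2 in the Khsrp knockdown (4162). The double knockdown then had 4 (5895) and the Rbm38 knockdown 2 (4567). In the Rbm38 knockdown total reads as scale gave 2 (2298 of 10697 genes). Exon events in place of introns gave 2 (2421 of 10615) and the term for library sets 0 (2367 of 10697). The set term gave 4 members between double and Khsrp (3807 of 10697 genes). The set term rests on siNT C against siNT A and B alone, since the other groups lie in 1 set each. Where a fit left 1 library in a group, that library was assumed to vary like the others. No called value changed sign in 103 alternatives, of which 86 stayed called. The cause of the changes was not tested.

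Replicate letters were not taken as pairs, since nothing in the labels ties them and A minus B differences did not correlate in all pairs of groups. The correlations ran from -0.062 to 0.058 in splicing. In junction levels they ran from 0.18 to 0.54 in the 6 pairs of groups without Rbm38 and from -0.74 to -0.13 in the 4 with it. The title of Fubp1 library B ends in A, whereas its description calls it replicate B, and the description was followed here. Letter C occurs only in siNT, so a replicate block takes siNT C out of the comparison and leaves siNT A and B. The Khsrp, double and Rbm38 libraries are then compared only with siNT libraries of the other library set. With a replicate block, 1 member event was called in the double knockdown and 0 in the other comparisons. With a replicate block junction levels gave 2 members in the Fubp1 (36.6% of all genes), 2 in the Khsrp (37.7%), 4 in the double (53.7%) and 2 in the Rbm38 knockdown (41.7%), 3 between double and Khsrp (34.3%) and 3 between double and Fubp1 (48.5%). The 2 added in the double knockdown were Gata2 (log2 change of -0.91) and Gata3 (-0.58). In the simulation, with 2 double knockdown libraries and few changed events, most changes of 15 points in PSI were not called. What the splicing fit can call in the real data, where more events changed, was not tested.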

Other observations

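The 739 nt intron of Phox2a had PSI of 30.2% and 43.4% after Fubp1, 19.6% and 41.5% after Khsrp, 8.9% and 50.9% after double and 55.1% and 14.8% after Rbm38 knockdown, against 25.2%, 39.3% and 34.8% in siNT. In each of the 4 knockdowns the library with the higher retention was the one with the lower Phox2a junction level. In siNT it was not, since library C had the lowest level and library B the highest retention. Both values are made from reads of the same introns, and this pattern was chosen after its values were seen.

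In the authors' deposited table the log2 ratio of the RPKM values and the log2 fold change differed with an SD of 0.14 to 0.20 over genes of at least 1 RPKM. The difference exceeded 0.3 in the Khsrp knockdown for 4 members, Phox2a, Hand2, Gata3 and Insm1, against 7.6% of those genes. It did so in the Rbm38 knockdown for 1 member, Gata2, against 6.5%. In the Fubp1 and double knockdowns it did so for 0 members, against 4.2% and 9.3%, in the authors' deposited table.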
